A study of Mus musculus with 9 samples.

Results

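The genes described here encode 6 keratins: Krt7, Krt8, Krt18 and Krt19, which are typical of simple (single-layered) epithelia, and Krt4 and Krt13, which are typical of moist stratified epithelia and are called mucosal here. They were chosen by name, as the array rows whose annotation gives exactly 1 symbol, that of the gene, and where a gene had several rows the brightest on average was taken. All 6 were measured, out of 22180 genes in all and 53 keratin genes.

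Total RNA of whole mouse corneas was hybridised to 9 single-colour arrays, 3 for each of 3 genotypes. The Dstncorn1 mutant group has the corn1 mutation in Dstn, which encodes the actin-depolymerising protein destrin. The rescued group carries the same Dstn mutation, and in addition Srf, the gene for serum response factor, a transcription factor that controls many actin genes, was ablated genetically in its corneal epithelium. Wild type (WT) corneas made up the remaining group. All groups were given doxycycline by intraperitoneal injection from postnatal day 28 to day 58 and were collected at day 58, in a mixed background of the strains FVB, 129, A.BY, Swiss Black and C57BL6/J. Each array is 1 pool of 10 corneas from 5 mice, so differences between single mice are averaged within a pool, and the labels do not name the driver of the ablation. The rescued corneas have no matched group with Srf ablated and normal Dstn here, so their values are set against the mutant and the WT.

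Keratins build the intermediate filaments of epithelial cells as obligate pairs of a type I and a type II protein. Krt8 (type II) with Krt18 (type I) is the pair of simple epithelia, where Krt7 (type II) and Krt19 (type I) join it. Krt4 (type II) with Krt13 (type I) is the pair of the upper layers of non-cornified stratified epithelia such as the conjunctiva, the oral mucosa and the oesophagus. The corneal epithelium is known instead for Krt12, and keratins of other epithelia are used as markers when its identity is in question.

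The deposited values are log2 intensities (base 2 was inferred from their range, 2.14 to 14.3). Judging by near-equal array medians, they appear to have been brought to a common scale already. Array medians over all rows lay between 6.75 and 6.78, and precision is limited by having 3 arrays in a group. Krt12, the defining marker of the tissue, was at 13.95 in WT, 13.53 in mutant and 13.92 in rescued pools (group means). Its log2 difference was −0.42 between mutant and WT (limma adjusted p = 0.000261). Between rescued and mutant it was 0.39 (adjusted p = 0.00142). Dstn was at 12.57 in WT, 5.63 in mutant and 5.62 in rescued pools. Srf was between 8.98 and 9.23 in the WT pools and between 10.55 and 10.77 in the mutant pools, and at 9.14, 9.45 and 8.45 in rescued pools 1, 2 and 3. Genes on the Y chromosome (3 measured) averaged a log2 intensity of 5.34 in WT pool 1, 5.15 in WT pool 3 and from 7.16 to 9.77 elsewhere, so the pools differed in Y-linked expression.

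Promoter sequence from RefSeq (build GRCm38.p6) was found for 4 of the 6 genes. The 250 bases before the annotated start are shown for Krt8 and Krt18, the pair that rose together by the largest amounts, for Krt7, which moved in the same directions, and for Krt13, which moved least. They read 5′ to 3′ on the gene's strand, and capitals mark matches to 4 motifs searched on both strands: the SRF-binding CArG box, the TATA box as TATAAA, a GC box of the Sp1 type as GGGCGG, and an AP-1-type site as TGANTCA. No match overlapped another.
Krt8 (chr15:102004343-102004592, minus strand): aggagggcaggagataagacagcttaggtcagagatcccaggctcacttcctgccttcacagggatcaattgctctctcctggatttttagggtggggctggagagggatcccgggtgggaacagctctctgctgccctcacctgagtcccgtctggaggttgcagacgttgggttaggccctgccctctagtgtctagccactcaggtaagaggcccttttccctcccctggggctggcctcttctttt
Krt18 (chr15:102027966-102028215, plus strand): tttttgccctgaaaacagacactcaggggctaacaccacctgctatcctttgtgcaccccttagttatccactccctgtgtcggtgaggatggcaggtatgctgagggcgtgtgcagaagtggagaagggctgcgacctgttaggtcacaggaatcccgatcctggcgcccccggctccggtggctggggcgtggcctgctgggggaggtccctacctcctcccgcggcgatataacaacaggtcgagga
Krt7 (chr15:101412153-101412402, plus strand): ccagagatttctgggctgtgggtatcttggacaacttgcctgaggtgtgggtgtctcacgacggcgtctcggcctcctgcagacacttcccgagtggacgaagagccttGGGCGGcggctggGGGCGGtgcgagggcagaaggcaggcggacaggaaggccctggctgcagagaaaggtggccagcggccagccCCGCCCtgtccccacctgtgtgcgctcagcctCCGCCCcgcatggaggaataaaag
Krt13 (chr11:100121567-100121816, minus strand): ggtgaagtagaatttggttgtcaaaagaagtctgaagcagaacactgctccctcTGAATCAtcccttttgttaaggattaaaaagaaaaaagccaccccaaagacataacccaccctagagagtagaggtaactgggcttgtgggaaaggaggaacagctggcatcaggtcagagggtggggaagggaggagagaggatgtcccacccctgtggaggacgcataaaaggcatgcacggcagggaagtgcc
The Krt8 and Krt18 windows held no match to any of the 4 motifs. The Krt7 window held 4 matches to GGGCGG, of which the pair nearer the start is on the opposite strand, and the Krt13 window held 1 match to the AP-1-type site. A second RefSeq start of Krt13 has 2 such matches in its window. No CArG box was found in any of these windows, which says only that these letters are not in them. Of all 32851 promoter windows of the same length, 1.47% held a CArG box, 12.4% the TATA box, 32.7% the GC box and 6.75% the AP-1-type site. A match is a description of the letters and was not tested as a binding site.

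The comparison of mutant with WT asked how these keratins stood in corneas without normal Dstn. All 6 were higher in the mutant, by 20-fold for Krt18 and 19.1-fold for Krt8 down to 1.51-fold for Krt13. A gene was called at an adjusted p under 0.05 (limma over all 9 arrays, Benjamini-Hochberg over all genes). Of all genes 31.6% were called, 15.1% as higher and 16.5% as lower. The lowest mutant pool lay above the highest WT pool for all 6. Of all genes 44.7% had groups that did not overlap, 21.0% with the mutant above. In RNA of whole corneas, a change in the number of cells of a type and a change in the RNA per cell cannot be told apart.

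Krt8, the type II keratin of simple epithelia, had log2 intensities of 8.27, 7.95 and 8.20 in WT pools 1, 2 and 3, of 12.20, 12.70 and 12.28 in the mutant pools, and of 11.12, 11.53 and 10.62 in the rescued pools. The 3 groups did not overlap, with the rescued pools in between. The mutant exceeded the WT by 4.25 on the log2 scale (SE 0.21, adjusted p = 1.1e-06), from 8.14 ± 0.17 to 12.39 ± 0.26 (mean ± SD, n = 3).

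Krt18, its type I partner, was at 8.03, 7.73 and 8.03 in the WT pools, at 12.19, 12.38 and 12.18 in the mutant pools, and at 10.66, 10.95 and 10.05 in the rescued pools. Its groups were likewise separate, and its difference between mutant and WT, 4.32 (SE 0.19, adjusted p = 7.16e-07), was as large as that of Krt8 within the errors. By size of increase Krt18 ranked 20 and Krt8 22 among the 22180 genes. A second row annotated to Krt18, which the comparisons do not use, gave a log2 difference of at least 3.64 (adjusted p = 1.05e-05), its WT mean being below the median of all rows.

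Krt7, a type II keratin of glandular and ductal epithelia, was at 6.74, 6.64 and 6.61 in the WT pools, below the median of all rows (6.77), so its fold is a lower bound. It was at 8.93, 9.37 and 8.95 in the mutant pools and at 8.42, 8.48 and 7.95 in the rescued pools, and the groups did not overlap. Krt7 was at least 5.35-fold higher in the mutant than in WT (log2 difference 2.42, SE 0.15, adjusted p = 3.51e-06).

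Krt19, the small type I keratin without a tail domain, was at 8.19, 7.96 and 7.70 in the WT pools, at 10.23, 11.05 and 10.26 in the mutant pools, and at 10.19, 10.32 and 9.42 in the rescued pools. Mutant and rescued pools both lay above every WT pool and overlapped with each other. Krt19 was 5.9-fold higher in the mutant than in WT (log2 difference 2.56, SE 0.27, adjusted p = 8.01e-05).

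Krt4, the type II mucosal keratin, was at 9.98, 9.99 and 9.55 in the WT pools, at 12.93, 12.59 and 12.90 in the mutant pools, and at 12.55, 12.48 and 11.76 in the rescued pools. The rescued pools lay just under the mutant pools, and both groups lay far above WT. Krt4 was 7.84-fold higher in the mutant than in WT (log2 difference 2.97, SE 0.21, adjusted p = 6.39e-06).

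Krt13, its type I partner, was at 12.21, 12.22 and 11.80 in the WT pools, at 12.69, 12.52 and 12.82 in the mutant pools, and at 12.44, 12.83 and 12.15 in the rescued pools. The rescued pools overlapped with both other groups. Krt13 was 1.51-fold higher in the mutant than in WT (log2 difference 0.60, SE 0.18, 95% interval 0.20 to 0.99, adjusted p = 0.0266). That call was lost without WT pool 3 (log2 difference 0.46, limma adjusted p = 0.0942), without mutant pool 1 (0.59, adjusted p = 0.0675), without mutant pool 3 (0.52, adjusted p = 0.0906) and with limma's trend and robust options (adjusted p = 0.0521). It was also lost with Y-linked expression as a covariate (0.53, adjusted p = 0.0947).

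**Figure D1:**
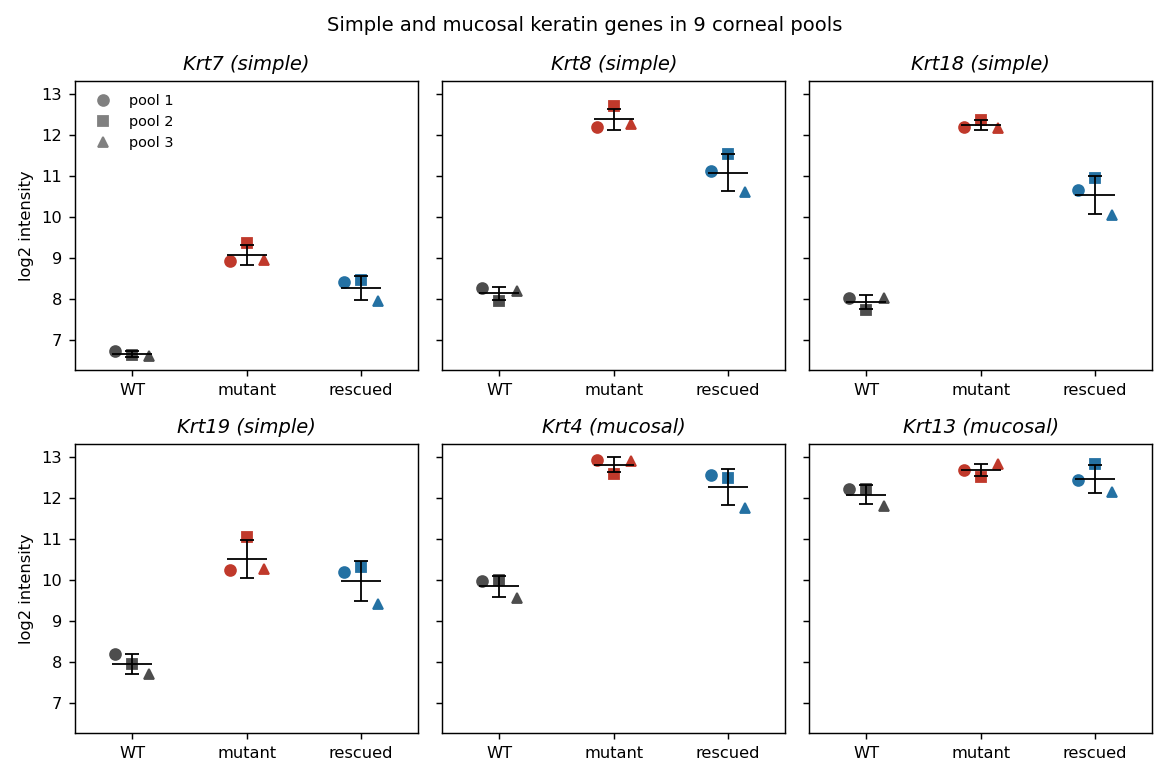
Log2 intensity (vertical axis) of each keratin gene in the 3 pools of each group; symbols are pools, the horizontal line is the group mean and the bars are the SD (n = 3). Krt8 and Krt18 rise from about the level of 8.14 and 7.93 in WT to 12.39 and 12.25 in the mutant, and Krt13 lies between 11.80 and 12.83 in all 9 pools.

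The classes thus overlapped in the size of the increase. The simple keratins rose by 2.42 to 4.32 on the log2 scale (median 3.41) and the mucosal pair by 0.60 and 2.97 (median 1.78), against a median of −0.02 over all genes. Within the simple pair the partners rose by like amounts, whereas within the mucosal pair Krt4 and Krt13 had intervals of 2.50 to 3.44 and 0.20 to 0.99 that did not overlap. The mucosal pair started from unlike levels, with WT means of 9.84 for Krt4 and 12.08 for Krt13, the latter above 98.7% of all genes. Their mutant means were 12.81 and 12.68. Whether the high WT level of Krt13 limited its measured rise was not tested. The difference between the classes was not tested, since the genes were chosen with earlier results known.

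The comparison of rescued with mutant asked whether ablation of Srf in the mutant epithelium goes with other keratin levels. Krt18 was 3.24-fold, Krt8 2.46-fold and Krt7 1.74-fold lower in the rescued corneas. For Krt4, Krt19 and Krt13 the difference was not called. Thus 3 of 4 simple keratins and neither of the 2 mucosal ones passed the test, against 6.88% of all genes called lower and 6.46% called higher. The share of all genes called in either direction, 13.3%, fell to 8.15% without rescued pool 3, to 8.44% without mutant pool 1 and to 8.71% without mutant pool 3, while the same 3 keratins were called each time.

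The log2 difference between rescued and mutant was −1.70 for Krt18 (SE 0.19, adjusted p = 0.000536), −1.30 for Krt8 (SE 0.21, adjusted p = 0.00354) and −0.80 for Krt7 (SE 0.15, adjusted p = 0.00803). It was −0.55 for Krt4, with a 95% interval of −1.01 to −0.08 before adjustment and an adjusted p of 0.123. It was −0.53 for Krt19, with an interval of −1.15 to 0.08 (adjusted p = 0.254), and −0.20 for Krt13, with an interval of −0.60 to 0.19 (adjusted p = 0.525). The intervals of Krt4 and Krt19 overlapped that of Krt7, so a decrease of the size seen in Krt7 is not excluded for them. The highest rescued pool lay below the lowest mutant pool for Krt7, Krt8, Krt18 and Krt4. Of all genes 32.2% had groups that did not overlap, 17.1% with the rescued pools below.

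In rescued pool 3 all 6 keratins were at their lowest among the rescued pools, and Srf was lowest in the same pool. Without it the rescued minus mutant difference was −1.45 for Krt18 (limma adjusted p = 0.000309), −1.07 for Krt8 (adjusted p = 0.00691) and −0.64 for Krt7 (adjusted p = 0.018). The differences that were not called also shrank: Krt4 from −0.55 to −0.29 (adjusted p = 0.311), Krt19 from −0.53 to −0.26 (adjusted p = 0.618) and Krt13 from −0.20 to −0.04 (adjusted p = 0.93). On the log2 scale these shifts were of like size to those of the called genes. Krt19 was also at −0.27 without mutant pool 2 (adjusted p = 0.57). The part that the level of Srf or the makeup of this pool has in the keratin values was not tested.

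**Figure D2:**
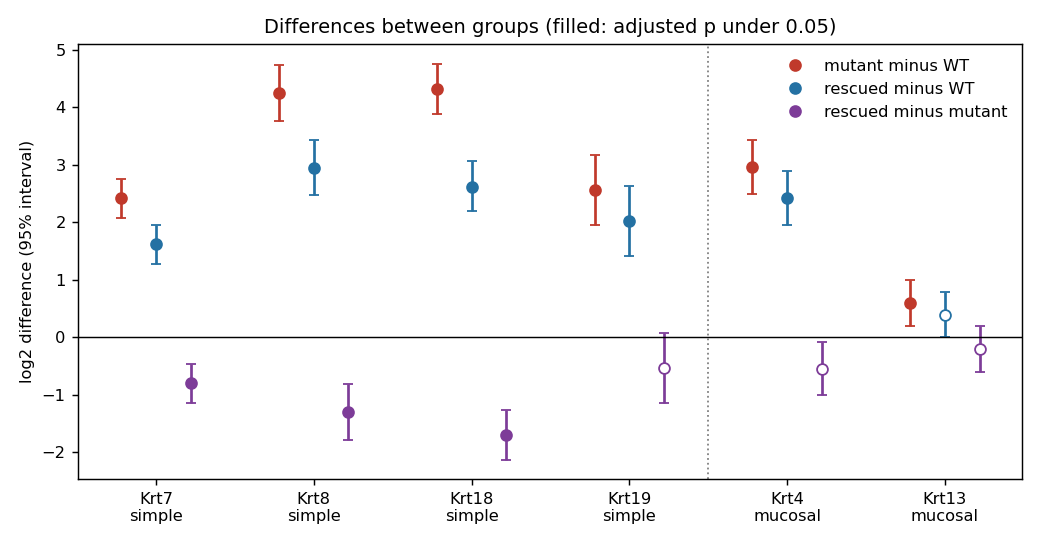
Log2 difference between groups (vertical axis) for each gene, with the 95% interval from limma; filled points have an adjusted p under 0.05. The rescued minus mutant difference is called for Krt7, Krt8 and Krt18, and rescued minus WT for all genes but Krt13.

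The comparison of rescued with WT asked what remained after the ablation. In rescued corneas Krt8 was still 7.74-fold, Krt18 6.16-fold, Krt4 5.37-fold and Krt19 4.08-fold above WT, and Krt7 was at least 3.07-fold above it. These 5 of 6 genes passed the test, against 6.28% of all genes called higher, and for the same 5 every rescued pool lay above every WT pool. Of all genes 31.6% had groups that did not overlap, 13.4% with the rescued pools above. The share called in either direction, 13.7%, was 8.17% without rescued pool 2, with the same 5 keratins called.

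The log2 difference between rescued and WT was 2.95 for Krt8 (SE 0.21, adjusted p = 5.01e-05), 2.62 for Krt18 (SE 0.19, adjusted p = 5.78e-05), 2.42 for Krt4 (SE 0.21, adjusted p = 0.000131), 2.03 for Krt19 (SE 0.27, adjusted p = 0.00147) and 1.62 for Krt7 (SE 0.15, adjusted p = 0.000222). Krt13 had a difference of 0.39 (SE 0.18, adjusted p = 0.188). The simple pair thus had the largest measured differences that remained, with Krt4 next, and the intervals of Krt8, Krt18 and Krt4 overlapped. The place of Krt7 in this order is undetermined, because its difference from WT is a lower bound.

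The 3 comparisons share arrays, so they are not independent of each other. As a description, the rescued mean can be placed between the mutant mean (0%) and the WT mean (100%). On the log2 scale Krt18 stood at 39.3% and Krt8 at 30.6%, and Krt7 at 33.1% or less, since its WT level is a bound. Krt19 stood at 20.8%, Krt4 at 18.4% and Krt13 at 34.2%. When each array was left out in turn, Krt18 ranged from 33.5% to 43.8%, Krt8 from 25.1% to 35.7%, Krt7 from 26.3% to 37.1%, Krt19 from 9.97% to 27.5% and Krt4 from 9.92% to 23.3%. Without rescued pool 3 the positions of Krt19, Krt4 and Krt13 were 9.97%, 9.92% and 6.84%. Without mutant pool 2 Krt19 stood at 11.6%, and without rescued pool 2 Krt13 stood at 64.5%. Differences in position between genes were not tested, and the genes share the deviations of the pools. On the linear intensity scale, from the antilogs of the group means, Krt18 stood at 72.8%, Krt8 at 62.7%, Krt7 at 52.4% or less, Krt19 at 37.2% and Krt4 at 36.2%.

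**Figure D3:**
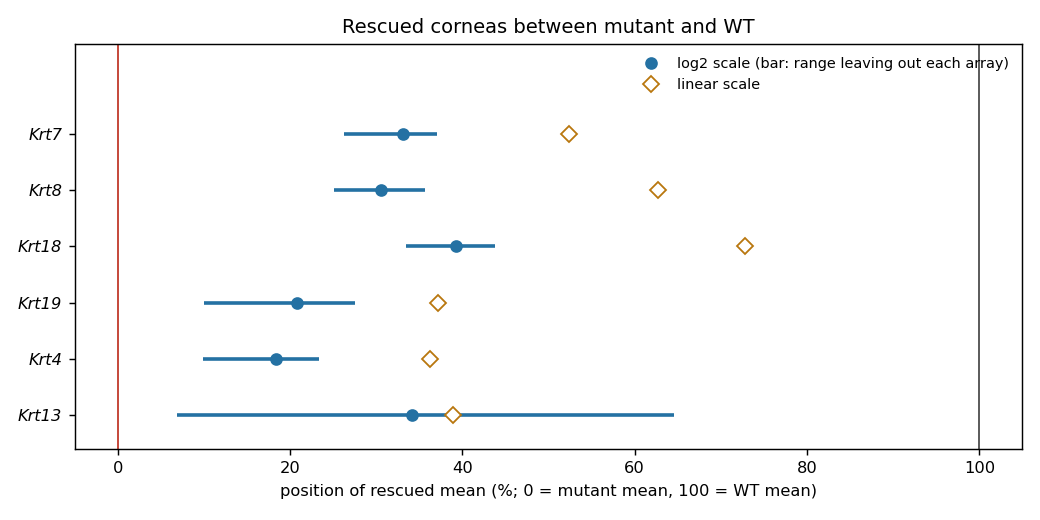
Position of the rescued mean (horizontal axis, in percent; 0 is the mutant mean and 100 the WT mean) for each gene; circles are on the log2 scale, with bars for the range when each array is left out in turn, and diamonds are on the linear scale. On the log2 scale Krt18 lies at 39.3% and Krt4 at 18.4%, and the bar of Krt13 runs from 6.84% to 64.5%.

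Among the mutant pools, pool 2 was highest for all 4 simple keratins, by 0.13 to 0.54 above the group mean on the log2 scale, and lowest for both mucosal keratins, by −0.22 for Krt4 and −0.16 for Krt13. Among the WT pools, pool 3 was lowest for both mucosal keratins, and for Krt18, Krt4 and Krt13 the upper pools were too close to order. Krt18 was at 8.03 in pools 1 and 3, and pools 1 and 2 were at 9.98 and 9.99 for Krt4 and at 12.21 and 12.22 for Krt13. Among the rescued pools, pool 3 was lowest for all 6 genes and pool 2 highest for all 4 simple ones. Mutant pool 2 also had the highest Y-linked level of the mutant pools (9.77) and the lowest level of the lens genes Cryaa, Cryba1 and Crygs (mean 8.54, against 10.39 and 8.86). WT pool 2 likewise had the highest Y-linked level (9.77) and the lowest lens level (10.81) of its group, but was highest for 0 and lowest for 2 of the 4 simple keratins. Rescued pool 2, highest for all 4, also had the highest Y-linked level of the rescued pools (9.11), with a lens level (8.28) between those of the others. With 3 pools a group these orders are a description, and the part of Y-linked expression or lens RNA in them was not tested.

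**Figure D4:**
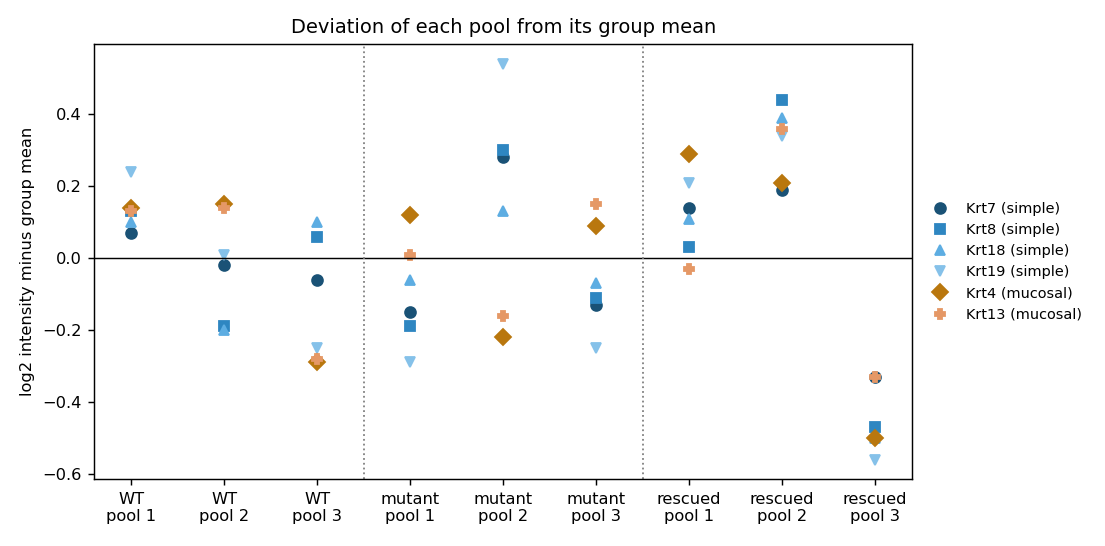
Log2 intensity minus the mean of its group (vertical axis) for each of the 6 genes in each of the 9 pools (horizontal axis); blue symbols are simple and orange symbols mucosal keratins. In mutant pool 2 the simple genes lie above 0 and the mucosal genes below it, and in rescued pool 3 all 6 lie below 0.

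The likeness of other genes was measured as Pearson's r of log2 intensity over the 9 arrays, among the named genes whose group means span at least 1. The arrays fall into 3 groups, so r mostly reflects the group means. Prrg4, the gene for a membrane protein of the vitamin K-dependent Gla family, had r = 0.999 with Krt8. The genes closest to Krt18 were Iffo2, an orphan relative of intermediate filament genes, Msn, the gene for the membrane-to-actin linker moesin, and again Prrg4 (each r = 0.997). Krt7 was closest to Kcnh1, a potassium channel gene, Rab27a, the gene for a vesicle transport GTPase, and Krt8 (each r = 0.997). Csrp1, the gene for a LIM-domain protein of the actin cytoskeleton, followed for Krt8 (r = 0.996). Krt19 was closest to Krt7 (r = 0.984), followed by Rab27a and the fatty acid-binding protein gene Fabp5 (both r = 0.983).

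The genes closest to Krt4 and Krt13 on this measure were others, yet Krt4 correlated more highly with each simple keratin than with Krt13. Its r was 0.973 with Krt8, 0.969 with Krt7, 0.963 with Krt19 and 0.961 with Krt18. Krt4 was closest to H2-Ab1 and H2-Aa, which encode MHC class II chains (both r = 0.994), and to Fxyd5, the gene for a regulator of the sodium pump (r = 0.992). For Krt13 the closest were the gasdermin gene Gsdmc (r = 0.92), the chemokine receptor gene Ccr7 (r = 0.919) and Laptm5, a lysosomal protein gene of leukocytes (r = 0.915). Krt8 and Krt18 correlated at 0.994, which made Krt18 number 6 of 1107 genes for Krt8 and Krt8 number 17 for Krt18. Krt4 and Krt13 correlated at 0.84, which made Krt4 number 108 of 1108 genes for Krt13; the group means of Krt13 span less than 1, so it was not ranked for Krt4.

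The genes lie in both keratin clusters of the mouse genome, in the order of the RefSeq table. Krt8 and Krt18 are next to each other at one end of the cluster on chromosome 15, which otherwise holds type II genes. Krt78, the other neighbour of Krt8, went the opposite way, 4.9-fold lower in the mutant (log2 difference −2.29, adjusted p = 1.32e-05), and Eif4b, the gene beyond Krt18, for a translation initiation factor, had a difference of 0.01 (adjusted p = 0.937). Krt4 lies between Krt76, a mucosal keratin gene of the palate (log2 difference at least 1.25, adjusted p = 0.0161), and Krt79 (0.15, adjusted p = 0.494). The WT mean of Krt76, 6.20, was below the median of all rows. On chromosome 11, Krt13 and Krt19 flank Krt15, a basal cell keratin gene, whose difference was 0.25 (adjusted p = 0.46). The neighbours of the keratins that rose therefore did not all move with them.

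Besides Krt88 and Krt222, which were in no list, 45 other keratin genes were measured. Krt88 had a log2 difference of 0.25 between mutant and WT (adjusted p = 0.036) and Krt222 one of −0.07 (adjusted p = 0.655). Of 21 other type II keratin genes, 6 were higher and 3 lower in the mutant than in WT, with a median log2 difference of 0.09. Over all genes 15.1% were called higher and 16.5% lower. The largest differences were in Krt75, a keratin gene of the hair follicle companion layer (8.45-fold higher, adjusted p = 7.47e-06), Krt78, and Krt90 (4.25-fold higher, adjusted p = 6e-05). Of 24 other type I genes, 7 were higher and 3 lower, with a median of 0.01. Among these Krt17 and Krt16, the stress keratins, were 51.7-fold and 14.7-fold higher (adjusted p = 9.47e-09 and 3.66e-07), and Krt10, a keratin gene of the suprabasal epidermis, fell by 3.33 on the log2 scale (adjusted p = 1.49e-07). In rescued corneas Krt75 and Krt84 were below the mutant level by 2.26-fold and 2.68-fold (adjusted p = 0.00746 and 3.95e-05), and Krt78 was 2.75-fold higher (adjusted p = 0.000835).

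**Figure D5:**
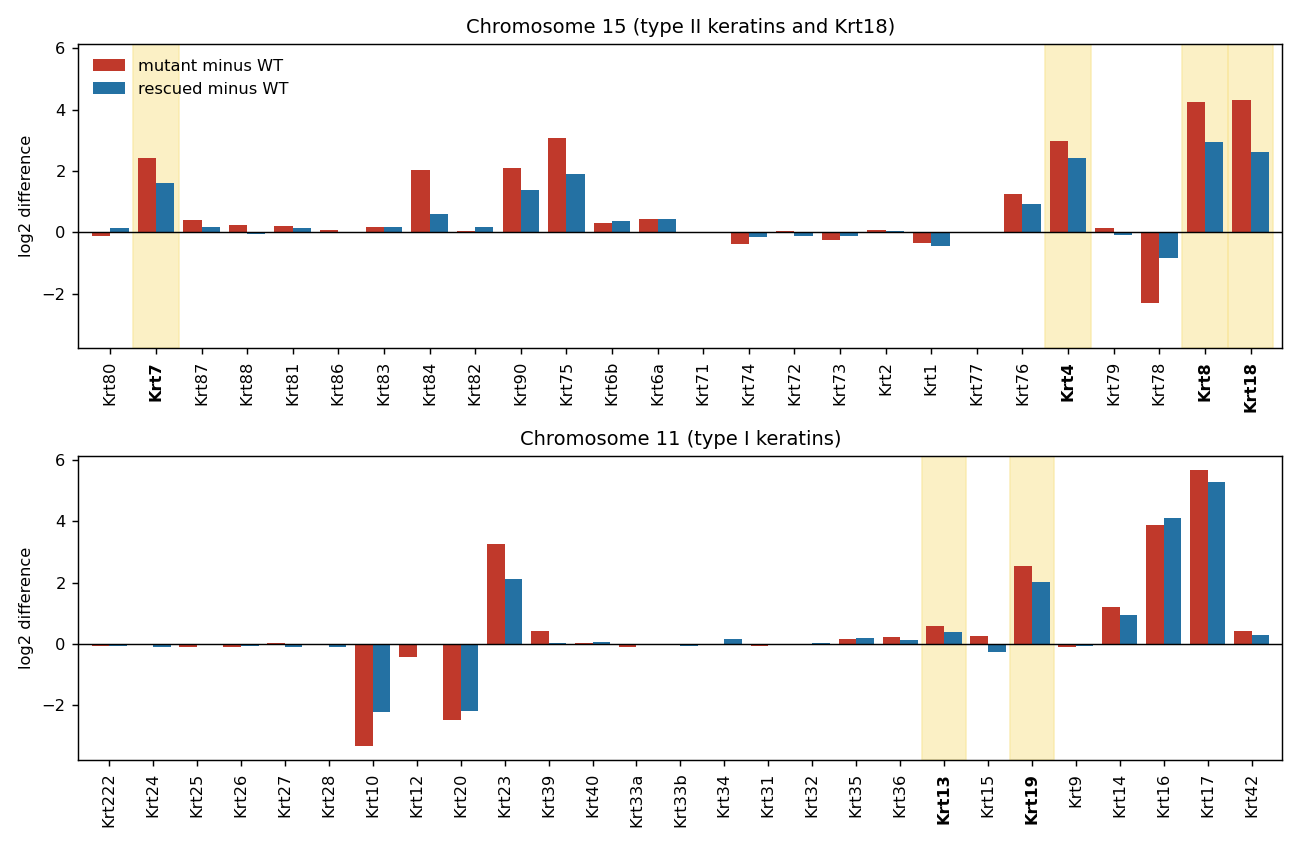
Log2 difference from WT (vertical axis) of the mutant and of the rescued corneas for all measured keratin genes, in their order on chromosomes 15 and 11; the 6 genes described here are shaded. Krt8 and Krt18 stand side by side with 4.25 and 4.32 in the mutant, next to Krt78 with −2.29.

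Genes whose products hold or join keratin filaments were listed as well. Of 23 such linkers and partners, 5 were higher and 5 lower in the mutant (median −0.02). Pkp2, the gene for the desmosomal plakophilin of simple epithelia and heart, was 3.14-fold higher (adjusted p = 2.85e-05). Evpl and Ppl, which encode the cornified envelope linkers envoplakin and periplakin, were 1.76-fold and 1.72-fold lower (adjusted p = 1.67e-05 and 1.33e-05). Between rescued and mutant these 3 genes went the other way: Pkp2 was 2.52-fold lower (adjusted p = 0.000472), and Evpl and Ppl were 1.74-fold and 1.71-fold higher (adjusted p = 0.000106 and 8.59e-05). Against WT, the rescued corneas had 3 of 23 higher and 0 lower, where 6.28% and 7.43% of all genes were. Pkp2 had a log2 difference of 0.32 between rescued and WT (adjusted p = 0.214).

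Of 24 genes that accompany keratins 8 and 18 in simple epithelia, 7 were higher and 9 lower in the mutant (median −0.05). Over all genes 15.1% were called higher and 16.5% lower. The mean log2 intensity of the list was 10.37 to 10.40 in WT and 10.51 to 10.61 in mutant pools. Only 1 of the 24 lay below the median of all rows in WT, so the list was bright in WT corneas as well. Anxa3, an annexin gene, was 9.11-fold higher (adjusted p = 7.96e-06), Sox9, a transcription factor gene of ducts and progenitors, 2.88-fold (adjusted p = 1.22e-05), and Cldn4, a claudin gene of tight junctions, 2.6-fold (adjusted p = 1.97e-05). These had the largest called differences of the list, and the 9 that fell changed by less. In rescued corneas 7 were higher and 5 lower than in the mutant, against 6.46% and 6.88% of all genes. Anxa3 was 2.3-fold and Sox9 1.96-fold lower (adjusted p = 0.00838 and 0.000787). Cgn, for the tight junction protein cingulin, was 1.57-fold higher (adjusted p = 0.000841). Of 15 other intermediate filament genes, 4 were higher and 2 lower in the mutant. Lmna, for lamin A/C, was 1.85-fold (adjusted p = 1.83e-05), Nes, for nestin, 1.7-fold (adjusted p = 0.000538) and Vim, for vimentin, 1.39-fold higher (adjusted p = 0.0194).

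Markers of the other cells that such a sample could hold were read beside the keratins. Over all genes 15.1% were called higher and 16.5% lower in the mutant than in WT. Of 21 conjunctiva and goblet cell markers, 5 were higher and 2 lower in the mutant, and their mean log2 intensity was 6.85 to 6.89 in WT, 7.02 to 7.19 in mutant and at most 7.16 in rescued pools. The log2 of their summed intensities was 13.35 to 13.40 in WT, 12.97 to 13.12 in mutant and 13.56 to 13.70 in rescued pools. Muc4 was the brightest of them and weighed most in that sum, with group means of 12.94 in WT, 11.88 in mutant and 13.09 in rescued pools. Of the defining goblet cell genes, Muc5ac lay below the median of all rows in each group (5.74, 6.19 and 5.95). It was nevertheless called higher in the mutant than in WT (log2 difference at least 0.45, adjusted p = 0.00619). Spdef and Tff1 had log2 differences of 0.10 (adjusted p = 0.383) and 0.06 (adjusted p = 0.777) between mutant and WT. Agr2, a secretory cell gene, was at least 4.51-fold higher (adjusted p = 0.00132), Foxa1, a transcription factor gene, 3.4-fold (adjusted p = 0.00123) and the mucin gene Muc1 2.85-fold (adjusted p = 0.000441). The 2 that fell were Fcgbp, for a mucus protein, 2.54-fold lower (adjusted p = 1.58e-05), and Muc4, a surface mucin gene, 2.08-fold lower (adjusted p = 2.07e-06). In the rescued corneas 3 of the 21 were above WT, against 6.28% of all genes, and Muc4 was 2.3-fold above the mutant (adjusted p = 6.53e-06).

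Corneal endothelium and retinal pigment epithelium are simple epithelia that can themselves make keratins 8 and 18. Of 11 corneal endothelial markers, 9 were lower and 0 higher in the mutant, with the log2 of their summed intensities at 14.79 to 14.86 in WT, 14.34 to 14.52 in mutant and 14.57 to 14.64 in rescued pools. Of 14 markers of retina and its pigment epithelium, 8 were lower and 0 higher, with sums of 10.62 to 10.86, 10.25 to 10.38 and 10.31 to 10.43, and Rpe65 lay below the median of all rows in each group. Of 18 lens markers, 11 were lower and 0 higher, with sums of 13.54 to 13.95, 12.29 to 13.11 and 12.30 to 12.53. Over all genes 16.5% were called lower and 15.1% higher in the mutant. The part of these tissues in the keratin values was not tested.

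Of 14 lacrimal and meibomian gland markers, 4 were higher and 0 lower in the mutant, with sums of 10.89 to 11.03 in WT, 11.73 to 11.97 in mutant and 11.60 to 11.75 in rescued pools. Scgb2b2, a secretoglobin gene, was at least 7.4-fold (adjusted p = 0.00404), Ltf, for lactoferrin, 5.33-fold (adjusted p = 8.53e-06) and the lysozyme gene Lyz2, which macrophages also express, 3.32-fold higher (adjusted p = 6.12e-06). Awat2, a meibomian lipid enzyme gene, and Bhlha15, an acinar transcription factor gene, lay below the median of all rows in each group. Of 15 immune cell markers, 11 were higher and 1 lower, with sums of 11.63 to 11.68, 12.13 to 12.80 and 12.11 to 12.47, and Mcpt4, a mast cell protease gene, was at least 14-fold higher (adjusted p = 3.35e-05). Among 10 markers of blood endothelium 9 rose and 1 fell, with sums of 10.30 to 10.38, 11.63 to 12.04 and 11.05 to 11.41, and Emcn, for endomucin, was at least 13.7-fold higher (adjusted p = 8.85e-07). The part of gland, immune and vascular cells in the keratin values was not tested. Of 17 corneal epithelial genes, 10 were lower and 2 higher in the mutant, and 11 were higher and 1 lower in rescued than in mutant corneas. Dsg1a, a desmoglein gene, was 5.08-fold lower in the mutant (adjusted p = 3.42e-06). Over all genes 15.1% were called higher and 16.5% lower in the mutant than in WT. Between rescued and mutant the shares were 6.46% higher and 6.88% lower.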

How the data were processed

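Per the labels' protocols, RNA came from Trizol extraction and was biotin-labelled after amplification by an Ambion WT Expression kit. The deposited values are log2 intensities per probe set, which the authors appear to have normalised between arrays, judging by near-equal array medians; the sources used here name no method. The table has 41345 rows, of which the platform annotation gives 1 symbol for 23521, several for 1814 and lists no gene for 16010. For the 1082 genes with several rows the row with the highest mean was kept, which left 22180 genes, with no filter on intensity (21994 matched RefSeq by gene ID). Every row of 1 symbol was eligible, and all 6 members passed. Groups came from the titles.

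The 3 comparisons were fitted with limma 3.58.1 (R 4.3.3: lmFit, contrasts.fit, eBayes) over all 9 arrays, two-sided, with Benjamini-Hochberg adjustment over all genes and a threshold of 0.05. SEs and 95% intervals are limma's moderated ones, and the intervals are not adjusted. Folds are antilogs of log2 differences and are lower bounds where the lower group mean was below 6.77, the median of all rows. The fit was tested on simulated data. Same-numbered pools correlated by −0.02 to 0.06 in their deviations from the group means, and the main fit did not pair them. Such values cannot tell whether the pools were handled in numbered sets.

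The members and lists were chosen with earlier results of these data known. Named were the members, Dstn, Srf and Krt12, up to 3 called members per list and comparison with the largest absolute difference, and the 3 genes most like each member. Krt76, Krt79, Krt15, Krt88, Krt222, Eif4b, Krt20 and the defining markers (Muc5ac, Spdef, Tff1, Awat2, Bhlha15) were named outside that rule. Motifs were searched in 32851 RefSeq windows with Python 3.11.15, and figures were drawn with matplotlib 3.10.9.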

Additional observations from a re-analysis of the deposited data

Results flagged for a closer look

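A second probe set annotated to Krt18, which none of the comparisons of groups used because it was the dimmer of 2, also carried a signal above the WT level. It was at 6.95, 5.84 and 6.29 in WT pools 1, 2 and 3, at 9.87, 10.26 and 9.86 in the mutant pools and at 8.16, 8.82 and 8.04 in the rescued pools, so its groups did not overlap. Its WT mean lay below the median of all rows, so its differences from WT are lower bounds. The log2 difference was at least 3.64 between mutant and WT (limma adjusted p = 1.05e-05), −1.65 between rescued and mutant (adjusted p = 0.00422) and at least 1.98 between rescued and WT (adjusted p = 0.00192).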

How the results depend on the processing

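Besides the settings of the report, 19 alternatives fixed with the design and 1 added after seeing the data (Y-linked expression as a covariate) were run. Over the 360 values of a log2 difference of a keratin, the direction was the same in 360 and the call in 354; the other 6 are Krt13 between mutant and WT, called at the main threshold and lost in the settings named beside it and at an adjusted p under 0.01. The number of keratins called was 5 to 6 between mutant and WT, 3 between rescued and mutant and 5 between rescued and WT, both over the alternatives that leave out 1 array and over the others. With the replicate number as a replicate block, 6, 3 and 5 keratins were called, and the block changed no call. Without genes below the median of all rows, 53.1% of genes were called between mutant and WT, 30.2% between rescued and mutant and 28.7% between rescued and WT. At an adjusted p under 0.01 the last pair of shares was 6.4% and 6.19%. When each array was left out, the position of the rescued mean ranged from 33.5% to 43.8% for Krt18, from 9.97% to 27.5% for Krt19, from 9.92% to 23.3% for Krt4 and from 6.84% to 64.5% for Krt13. Signal over background is not given for these rows, so the WT level of Krt7 is a bound.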

Other observations

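Krt20, the type I keratin of intestinal and urothelial surface cells and thus also a keratin of simple-type epithelia, went opposite to Krt8 and Krt18; it was chosen after its values were seen. Its log2 intensity (mean ± SD of 3 pools) was 9.55 ± 0.18 in WT corneas, 7.06 ± 0.16 in the mutant and 7.36 ± 0.10 in the rescued. It was lower in the mutant by 5.62-fold (limma adjusted p = 6.23e-07) and lower in the rescued corneas than in WT (log2 difference −2.19, adjusted p = 7.69e-06), and the difference between rescued and mutant was 0.30 (adjusted p = 0.106). Krt23, another type I keratin, was at 8.13 ± 0.09 in WT corneas, 11.40 ± 0.08 in the mutant and 10.25 ± 0.73 in the rescued, with log2 differences of 3.27 between mutant and WT (adjusted p = 2.2e-05) and −1.15 between rescued and mutant (adjusted p = 0.0262).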
